A study of Arabidopsis thaliana with 16 samples.

Results

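The comparison covered leaves of Arabidopsis thaliana at the photosynthetic optimum and at the growth temperature, that is, the part of a warming series in which photosynthesis had not yet declined. It used 8 of the 16 arrays of the series, 4 labelled leaf optimum and 4 labelled leaf baseline, all from the first fully expanded leaf of the line Columbia. The wild-type plants carried no transgene or mutation named in the labels and had grown at 22 °C under a 10 h photoperiod, 350 µmol m-2 s-1 of light and 60% relative humidity. Baseline leaves were sampled at that growth temperature. Optimum leaves came from plants warmed by 2 °C every 10 min from 22 °C towards 42 °C until photosynthesis peaked, then held for 20 to 30 min. The other 8 arrays, 4 at 20% inhibition and 4 at 30% inhibition of the optimum, entered the model for its estimate of the spread and are used below to place each change in the longer course. The labels speak of leaves of 4 randomly collected plants, so p-values measure the spread between these leaf samples, and they do not say whether the same plants gave leaves at several states. The leaf temperature of the optimum is not given, and leaf temperature, the time since warming began and the hour of the day cannot be told apart in any difference below. Each value is the log2 of a probe set's normalised signal, where a difference of 1 is 2-fold.

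Plant cells answer warming with heat shock factors, transcription factors that switch on genes for chaperones. Chaperones hold, unfold or refold proteins: small heat shock proteins bind unfolding proteins, HSP70 works with J-domain partners and nucleotide exchange factors, and HSP90 works with co-chaperones on more specific clients. In leaves, warming also speeds photorespiration, the costly recycling of the product made when Rubisco takes oxygen in place of carbon dioxide. Net photosynthesis has a temperature optimum, above which it falls while heat damage can still be reversible.

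Of the 22746 probe sets tested, 3770 differed between the optimum and the baseline in limma, 16.6% of them, with 1852 higher (8.14%) and 1918 lower (8.43%). The counts in the 2 directions were close, but the sizes were not. Among the higher calls 245 probe sets (1.08%) rose at least 2-fold, 48 at least 4-fold and 22 at least 8-fold, and the largest rose by 5.61. Among the lower calls 49 (0.215%) fell at least 2-fold and 3 at least 4-fold, and the largest fell by 2.59. Most calls were small: 59.1% of the higher and 71.6% of the lower calls were under 0.5 in size. Both of the most extreme probe sets have no single gene in the annotation used here, which names 1 gene for 1969 of the 3770 called probe sets and for 109 of the 245 that rose at least 2-fold. By gene, 13356 had a probe set of their own, and of these 918 rose (6.87%) and 1037 fell (7.76%), 109 by at least 2-fold upward (0.816%) and 23 downward (0.172%). The median over all these genes was −0.03. The counts of called probe sets ran from 2710 to 4479 when single arrays were left out.

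**Figure D1:**
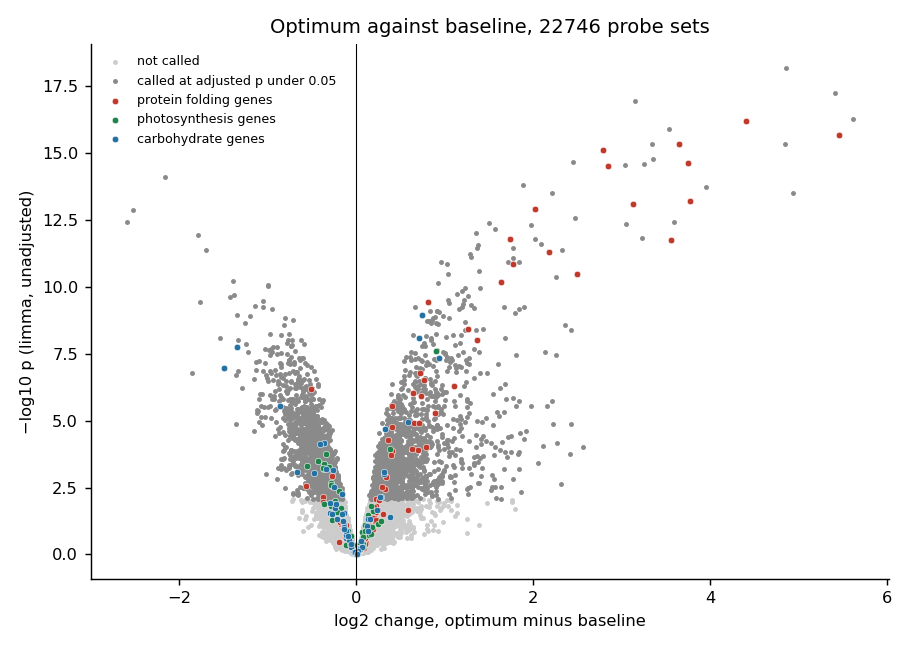
Each point is a probe set, with the log2 change from baseline to optimum on the x axis and the −log10 of the unadjusted p from limma on the y axis; dark grey marks calls, and red, green and blue mark genes of the folding, photosynthesis and carbohydrate lists. The right arm reaches 5.61 and the left arm −2.59, although similar numbers of probe sets were called on each side (1852 higher, 1918 lower).

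None of 5 measures of the arrays themselves passed a test between the states. Array medians were 6.13 to 6.17 at the baseline and 6.15 to 6.19 at the optimum (exact permutation test, 2-sided, p = 0.1143, adjusted over 5 measures 0.5715). The 25S rRNA control read 5.55 to 6.41 and 5.53 to 6.31 (exact permutation p = 0.7714), and the 3′ minus 5′ differences of actin, GAPDH and ubiquitin gave exact permutation p-values of 0.3429, 0.2286 and 0.9429. The smallest p that 4 arrays against 4 allow is 0.0286. After adjustment over 5 measures, 1 measure differing alone could therefore not have passed, and no conclusion is drawn from these tests. Within the optimum, array 1 was the lowest of the 4 in 54 of the 109 genes that rose at least 2-fold and array 4 in 7, while array 4 was the lowest in 17 of the 23 genes that fell at least 2-fold. The part of this order in the results was not tested. Leaf identity was plain in both states: RCA (Rubisco activase) read 14.62 and 14.56, LHCB4.1 (a photosystem II antenna protein) 14.12 and 14.17. Of the lists of other leaf cell types, 3 of 9 guard cell markers had a named probe set and none was called, and 0 of 11 vascular and 0 of 10 epidermal markers had one. In whole leaf, fewer cells of a type and less RNA per cell cannot be told apart.

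The largest named rises were chaperones and their partners. AT5G48570, also known as ROF2 or FKBP65, a peptidyl-prolyl isomerase that binds HSP90, read 5.51, 5.01, 4.87 and 5.35 in the baseline arrays and 10.11, 10.68, 11.13 and 10.67 in the optimum arrays. AT2G20560, a J-domain protein, read 4.97, 4.72, 4.74 and 4.62 against 8.81, 9.10, 9.51 and 9.26. For both genes the lowest optimum array lay more than 3 units above the highest baseline array. AT5G48570 rose by 5.46 ± 0.16 (SE, adjusted p = 6.8e-13), a 44.1-fold rise, and AT2G20560 by 4.41 ± 0.12 (adjusted p = 2.9e-13), a 21.2-fold rise. Both genes started from a dim signal near the lower end of the array, whose lowest values lie at about 3.3, so the fold may understate the change.

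Small heat shock proteins held 3 of the next places. AT5G51440 read 3.85, 3.84, 3.88 and 4.04 at the baseline and 6.99, 7.81, 8.13 and 7.76 at the optimum (3.77 ± 0.16, adjusted p = 6e-11). AT1G54050, of the cytosolic and nuclear class III, read 6.87, 6.76, 7.16 and 6.90 against 10.15, 10.83, 10.96 and 10.76 (3.75 ± 0.13, adjusted p = 3.7e-12). AT2G29500, of the cytosolic class I, read 4.87, 5.03, 4.78 and 5.06 against 8.26, 8.69, 8.99 and 8.42 (3.65 ± 0.11, adjusted p = 1e-12). In all 3 the groups were far apart and optimum array 1 was the lowest of its group. Hop3, which hands clients from HSP70 to HSP90, read 4.26, 4.27, 4.01 and 4.18 against 6.97, 7.83, 8.32 and 7.85, a rise of 3.56 ± 0.19 (adjusted p = 1e-09) with the same array lowest.

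**Figure D2:**
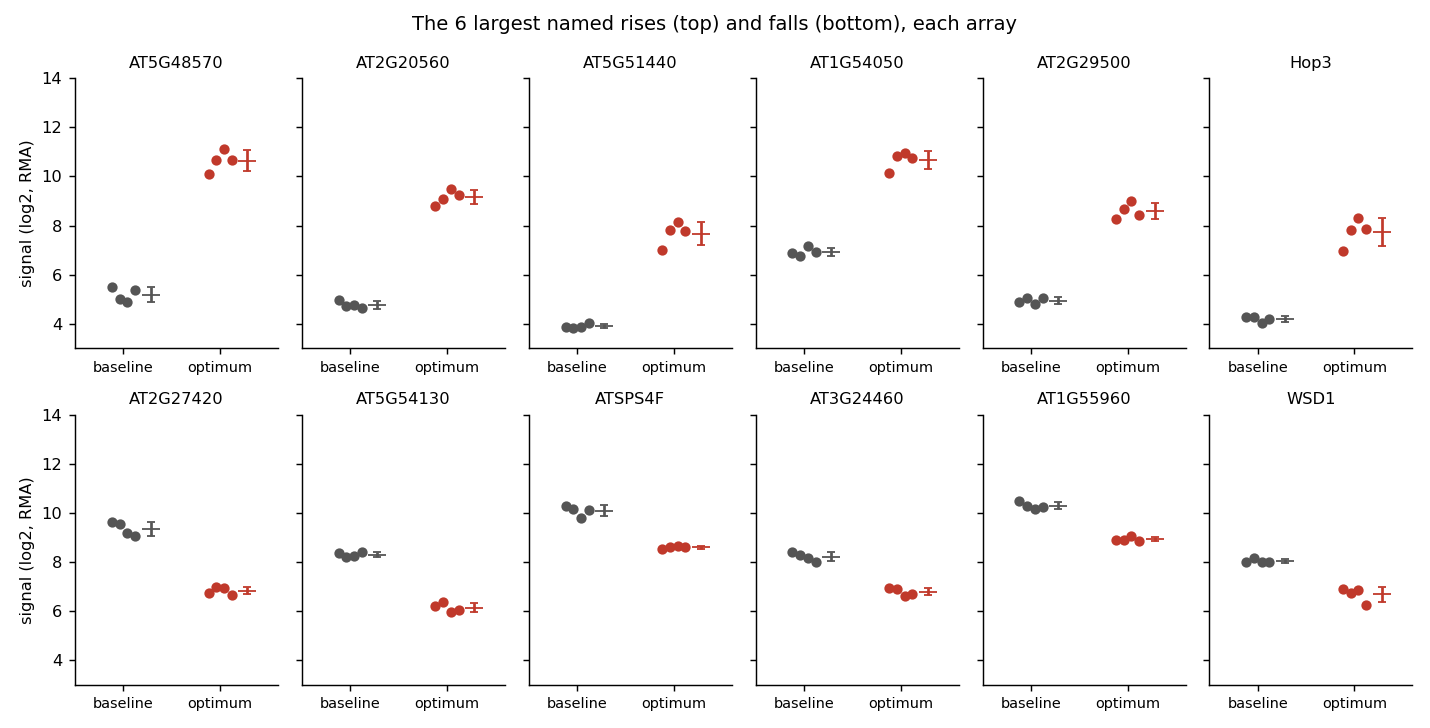
Log2 signal in each of the 4 baseline and 4 optimum arrays for the 6 largest named rises and the 6 largest named falls; each point is an array. In the rises the optimum arrays lie at 6.97 or above and never reach down to the baseline arrays; in the falls the groups do not overlap either, with smaller gaps.

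The other 19 of the 25 largest rises ran from 3.35 down to 2.03. AT1G26800 and AT1G14200, RING-type proteins of the family of ubiquitin ligases, rose by 3.35 ± 0.11 and 3.25 ± 0.11. Fes1A, a nucleotide exchange factor of HSP70, rose by 3.13 ± 0.14, and AT1G66080, related to the human protein Hikeshi that carries HSP70 into the nucleus, by 3.04 ± 0.11. The J-domain genes AT1G56300, AT3G14200 and AT1G71000 rose by 2.85, 2.79 and 2.50. SGT1A, an HSP90 co-chaperone known from disease resistance, stood just past the end of this range at 2.02 ± 0.09.

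Several of these 25 lay outside protein folding. AT5G12110, a subunit of the translation elongation factor eEF1B, rose by 2.26 ± 0.15. AT5G05600, a dioxygenase that inactivates jasmonate, rose by 2.21 ± 0.31. AT5G62360, a pectin methylesterase inhibitor, rose by 2.36 ± 0.20, and LTI30, a dehydrin, by 2.16 ± 0.31. AT4G14270 (2.47), AT3G10020 (2.45), AT1G30070 (2.33, with an SGS domain), AT5G10695 (2.26), AT5G35320 (2.09) and AT3G07090 (2.03, a PPPDE-type peptidase) complete the set apart from AT2G19310, a small heat shock protein (2.18), and AT2G33850. The last was unlike the rest: its baseline arrays overlapped its optimum arrays because baseline array 3 read 7.66, its SE was 0.65 and its adjusted p 0.02, and over the alternatives that p ran from 0.00029 to 0.075. Its call ended without baseline array 1 (adjusted p = 0.075), 2 (0.062) or 4 (0.066), without optimum array 2 (0.065) or 4 (0.072), and when only the 8 arrays compared were fitted (0.055).

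Protein folding held a larger share of rises than the genes at large, in lists chosen with earlier results of these data known. The shares here and in the lists below may partly restate that choice and are no test. Of 116 measured genes in the 8 folding lists, 38 rose (32.8%, against 6.87% of all genes) and 5 fell (4.31%, against 7.76%), and 18 rose at least 2-fold (15.5%, against 0.816%). The falls numbered 2 without baseline array 1 or optimum array 2, and 3 without baseline array 2 or 3 or optimum array 4. The median of the 116 was 0.11. The lists differed: HSP70 with its exchange factors had a median of 0.70 and HSP90 with its co-chaperones 0.74, while J-domain proteins had 0.05 and peptidyl-prolyl isomerases −0.02. The large changes in those last 2 families were carried by a few members. A list of heat shock and DREB2 transcription factors, with 24 loci, had 0 genes with a named probe set, so these factors are not described.

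Of 8 measured genes for HSP70 and its exchange factors, 6 rose and none fell. AT3G09440, an HSP70 of the cytosol, read 11.08, 10.90, 11.04 and 10.78 at the baseline and 12.47, 12.65, 12.79 and 12.85 at the optimum. This gene was already bright at the growth temperature and its groups did not overlap (1.74 ± 0.09, adjusted p = 9.6e-10). Hsp70-2 rose by 1.10 ± 0.14, AT4G16660, an HSP70 of the endoplasmic reticulum, by 0.77 ± 0.09, and Fes1B by 0.63 ± 0.13. Fes1C was called at 0.23 ± 0.08 (adjusted p = 0.049), and over the alternatives its adjusted p ran from 0.014 to 0.14, with the highest value without optimum array 3. That call also ended without any one of baseline arrays 1 (0.094), 2 (0.069), 3 (0.096) and 4 (0.10) or optimum arrays 2 (0.093) and 4 (0.084), without 20% inhibition array 2 (0.051), without 30% inhibition arrays 1 (0.061), 2 (0.056) and 4 (0.055), and with arrays centred (0.079) or normalised again (0.09).

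Among 9 genes for HSP90 and its co-chaperones 5 rose (55.6%, against 6.87% of all genes), namely AT5G48570, Hop3, SGT1A, AT3G12050 and Hop2. SGT1A read 8.31, 8.03, 8.02 and 8.13 at the baseline and 9.97, 10.11, 10.28 and 10.20 at the optimum, with no overlap. AT3G12050, of the Aha1 type that stimulates the ATPase of HSP90, rose by 1.64 ± 0.11, and Hop2 by 0.74 ± 0.10. BOB1, a NudC-type chaperone needed for thermotolerance and development, rose by 1.27 ± 0.11. HSA32, needed to keep acquired thermotolerance, was called at 0.33 ± 0.10 although its groups overlapped, and its adjusted p of 0.027 ran from 0.011 to 0.096 over the alternatives. Its call ended without baseline array 1 (0.096) or 2 (0.062) or optimum array 1 (0.08) or 4 (0.079).

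Small heat shock proteins were split. Of 10 measured, 5 rose, all at least 2-fold: the 3 above, AT2G19310 by 2.18 ± 0.12 and AT5G37670, a peroxisomal member, by 1.37 ± 0.13. AT1G53540, a class I gene, read 4.33, 4.18, 4.62 and 4.64 at the baseline and 5.97, 4.85, 4.76 and 4.52 at the optimum, so the groups overlapped and only optimum array 1 stood out (0.58, adjusted p = 0.095, with 0.038 to 0.22 over the alternatives and 0.042 without optimum array 4). ATHSP22.0, of the endoplasmic reticulum, changed by −0.08 (adjusted p = 0.68) and AT1G52560 by 0.02 (0.94). AT5G54660 was the 1 member called lower, at −0.57 ± 0.16 (adjusted p = 0.022). That call ended without baseline array 1 (0.066) or 2 (0.057) or optimum array 2 (0.051) or 4 (0.073), and its adjusted p ran from 0.0035 to 0.073 over the alternatives.

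Of 29 J-domain genes 8 rose (27.6%, against 6.87% of all genes), and 4 of those rises were under 1. AT2G33735 (0.70 ± 0.14), AT4G28480 (0.65 ± 0.11) and ATERDJ3B, a partner of HSP70 in the endoplasmic reticulum (0.64 ± 0.08), were among them. The endoplasmic reticulum list gave small but regular rises, with 7 of 15 genes up (46.7%), none down and a median of 0.26. BZIP28, a membrane-bound transcription factor released by protein misfolding there, read 7.80, 7.75, 7.66 and 7.68 against 8.58, 8.48, 8.51 and 8.54 (0.81 ± 0.06, adjusted p = 1.2e-07). DER1 rose by 0.89 ± 0.13 and DER2.1 by 0.41 ± 0.07 (both of the degradation path out of the endoplasmic reticulum). A dimmer probe set of DER1 was not called, so the probe sets of this gene disagree. Calnexin AT5G07340 rose by 0.72 ± 0.08, calreticulin CRT1b by 0.40 ± 0.08 and OS9, a lectin that picks misfolded glycoproteins, by 0.40 ± 0.08. BZIP60, the other stress sensor of this compartment, changed by 0.26 ± 0.09 (adjusted p = 0.053, with 0.0028 to 0.17 over the alternatives). It was called without optimum array 2 (0.0028) or 20% inhibition array 3 (0.049).

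Of 13 chaperonin and prefoldin genes 2 rose (15.4%, against 6.87% of all genes). Both were subunits of the chloroplast chaperonin: Cpn60beta3 by 0.79 ± 0.16 and Cpn60beta2 by 0.40 ± 0.06. Of 33 peptidyl-prolyl isomerases 5 rose (15.2%) and 3 fell (9.09%, against 7.76% of all genes). The cyclophilin AT2G21130 read 5.81, 5.50, 5.96 and 5.61 at the baseline and 7.45, 7.46, 7.57 and 7.50 at the optimum (1.78 ± 0.11), the second largest rise of its family after AT5G48570. AT1G01940 rose by 0.71 ± 0.12 and AT3G55520 fell by 0.52 on the log2 scale.

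Protein degradation, with 130 genes in 8 lists, gave 20 rises (15.4%, against 6.87% of all genes) and 11 falls (8.46%, against 7.76%). Among the rises 5 were at least 2-fold (3.85%, against 0.816% of all genes). The falls numbered 7 without baseline array 2 or optimum array 2 or 4, and 6 without baseline array 4. RING-type ubiquitin ligases held 3 of those 5. AT1G26800 read 6.33, 6.30, 6.56 and 6.79 at the baseline and 9.66, 9.82, 10.03 and 9.87 at the optimum, and AT1G55530 rose by 1.5 ± 0.07. LUL1, which also carries a RING domain, rose by 0.84 ± 0.08, while AT3G61550 fell by 0.55 on the log2 scale. In this list of 36 genes 4 rose (11.1%) and 5 fell (13.9%), with a median of −0.03. The falls numbered 3 without baseline array 1 or optimum array 2 or 3, and 2 without baseline array 2 or 4 or optimum array 1 or 4. PUB19 and PUB23, U-box ligases known from drought and immune responses, rose by 1.25 ± 0.15 and 0.53 ± 0.13. None of 12 ubiquitin-specific proteases was called in limma, and 1 of them had an unadjusted p under 0.05.

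Some genes of autophagy and of sorting to the vacuole rose. ATG8D, whose product coats forming autophagosomes, read 6.54, 6.37, 5.77 and 6.32 at the baseline and 7.03, 7.40, 7.34 and 7.25 at the optimum, a rise of 1.01 ± 0.14 (adjusted p = 9e-05). Of the 10 ATG8 and ATG3 genes 3 rose (30.0%, against 6.87% of all genes) and none fell. ATG3, which attaches ATG8 to lipid, rose by 0.21 ± 0.05. The subunits of ESCRT-III, which pinches membrane into endosomes, included VPS60.1 at 6.52, 6.45, 6.02 and 6.54 against 7.64, 7.34, 7.53 and 7.73. VPS60.1 rose by 1.18 ± 0.11, VPS20.1 by 0.76 ± 0.10, VPS2.1 by 0.56 ± 0.10 and VPS46.2 by 0.29 ± 0.07. The wider vesicle trafficking list had 8 rises (17.8%, against 6.87% of all genes) and 2 falls (4.44%, against 7.76%) among 45 genes. The rises numbered 5 without baseline array 1. The falls ran from 1 to 4 when single arrays were left out: 1 without baseline array 2, 3 or 4 or optimum array 2, 3 or 4, and 4 without optimum array 1.

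The falls were fewer at large size and spread over other functions. AT2G27420, a papain-type cysteine proteinase, read 9.63, 9.56, 9.19 and 9.06 at the baseline and 6.75, 6.97, 6.95 and 6.67 at the optimum, the largest named fall (−2.52 ± 0.11, adjusted p = 1.1e-10, 5.75-fold). AT5G54130, with a calcium-binding domain, read 8.38, 8.20, 8.25 and 8.42 against 6.23, 6.37, 5.97 and 6.04 (−2.16 ± 0.08). Both probe sets of AT5G54130 fell. ATSPS4F, a sucrose-phosphate synthase, read 10.29, 10.19, 9.79 and 10.12 against 8.53, 8.61, 8.67 and 8.61 (−1.5 ± 0.17), with the optimum arrays within 0.2 of each other.

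AT3G24460, a serinc-type membrane protein, read 8.42, 8.31, 8.17 and 7.99 at the baseline and 6.95, 6.90, 6.63 and 6.71 at the optimum (−1.42 ± 0.10). AT1G55960, with a START lipid-binding domain, read 10.51, 10.30, 10.17 and 10.26 against 8.90, 8.90, 9.06 and 8.87 (−1.38 ± 0.10). WSD1, a wax ester synthase of the cuticle pathway, read 8.01, 8.17, 8.02 and 8.0 against 6.90, 6.76, 6.85 and 6.25 (−1.36 ± 0.22). The groups of all 6 genes stayed apart, and WSD1 had the widest optimum group because array 4 read 6.25.

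The next falls included transporters, light and hormone signalling genes and enzymes. SWEET2, a sugar transporter of the vacuole membrane, read 8.40, 8.33, 8.19 and 8.29 at the baseline and 7.17, 7.08, 7.18 and 6.41 at the optimum (−1.35 ± 0.13, adjusted p = 2.7e-06). HYH, a light-signalling bZIP factor, read 6.08, 6.14, 6.11 and 5.85 against 4.99, 4.92, 4.87 and 4.85 (−1.14 ± 0.09). AT5G15950, a decarboxylase of S-adenosylmethionine on the path to polyamines, read 9.81, 9.88, 9.60 and 9.79 against 8.76, 8.70, 8.65 and 8.46 (−1.13 ± 0.12). No optimum array of these 3 genes reached the baseline arrays.

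Others of the 25 probe sets, which stand for 24 genes since both of AT5G54130 are among them, were AT1G65870, a dirigent protein (−1.36), AT1G01390, a UDP-glycosyltransferase (−1.29), RR16, a response regulator of cytokinin (−1.15), AT1G68570, a transporter of the nitrate and peptide family (−1.05), and AT5G59670, a leucine-rich repeat receptor kinase (−1.05). AT5G42760, AT5G57760, AT2G42190, AT5G66740, AT5G20220, AT3G56290, AT1G62510, AT3G16670, AT1G13650 and AT3G27350 fell by between 1.34 and 0.98 on the log2 scale. The naming rule also took the calls of the paragraphs below, list by list.

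The calls among nuclear genes of photosynthesis were small and mostly downward. Of 56 measured genes in 6 lists 10 fell (17.9%, against 7.76% of all genes) and 2 rose (3.57%, against 6.87%). None changed 2-fold, and the median was −0.03, which is also the median of all genes. Coverage was partial: 23 antenna loci were listed and 5 genes measured. For the photosystems, electron transport and ATP synthase it was 37 and 9, and for the Calvin-Benson cycle 24 and 4. The 9 genes of the photosystems, electron transport and ATP synthase had no call in limma, 1 of them with an unadjusted p under 0.05 in each direction, and PSAE-1 of photosystem I changed by 0.03 ± 0.05. Of 5 antenna and antenna-like genes 1 was called lower (20.0%), LIL3:2, of a light-harvesting-like type, at −0.20 ± 0.06 (adjusted p = 0.03). That count of falls was 0 without baseline array 1, 2 or 4 or optimum array 2 or 4, and 2 without 30% inhibition array 3 or 4. LHCB4.1 changed by 0.05 ± 0.06 and LHCB4.2 by 0.03 ± 0.05, while LHCB4.3 changed by −0.37 ± 0.13 (adjusted p = 0.069, with 0.011 to 0.19 over the alternatives). LHCB4.3 was called lower when only the 8 arrays compared were fitted (0.011) and without 30% inhibition array 3 (0.016) or 4 (0.035). RCA, which keeps Rubisco active and is known as heat sensitive as a protein, changed by −0.06 ± 0.05 (adjusted p = 0.43). Its signal lay close to the brightest values of these arrays, 14.65 to 14.68 at the baseline and 14.62 to 14.67 at the optimum. A rise of RCA, or of other genes this bright, may therefore be understated.

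Assembly factors and the chloroplast NDH complex, which returns electrons around photosystem I, gave 3 falls among 17 genes (17.6%, against 7.76% of all genes). No gene of this list rose (against 6.87% of all genes), or 1 rose without baseline array 4 or optimum array 4. NdhN, a subunit, fell by 0.37 on the log2 scale (adjusted p = 0.0079), CRR28, needed to edit NDH transcripts, by 0.43 (0.0047), and LPA66, needed to edit a photosystem II transcript, by 0.36 (0.0054). Photorespiration gave 3 falls among 7 genes (42.9%, against 7.76% of all genes) and a median of −0.22. HPR, the peroxisomal hydroxypyruvate reductase, read 13.54, 13.58, 13.54 and 13.63 at the baseline and 13.11, 13.28, 13.35 and 13.17 at the optimum (−0.34 ± 0.07, adjusted p = 0.0028). LrgB, which carries glycolate and glycerate across the chloroplast envelope, read 11.96, 12.02, 11.86 and 12.06 against 11.78, 11.59, 11.65 and 11.37 (−0.38 ± 0.09). Neither gene had overlapping groups, and AT1G80380, glycerate kinase at the end of the pathway, fell by 0.31 on the log2 scale.

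In the Calvin-Benson cycle 2 of 4 genes were called lower, SBPASE at −0.29 ± 0.08 (adjusted p = 0.022, with 0.0077 to 0.083 over the alternatives) and PRK at −0.28 ± 0.08 (0.019, with 0.0065 to 0.057). The count of falls was 1 without baseline array 1, 2 or 4 and 0 without optimum array 4. SBPASE lost its call without baseline array 1 (0.061) and optimum array 4 (0.083), and PRK without baseline arrays 2 (0.057) and 4 (0.054) and optimum array 4 (0.057). Pigment genes gave 2 rises (13.3%, against 6.87% of all genes) and 1 fall (6.67%, against 7.76%) among 15. PORB, which makes chlorophyllide in light, read 11.80, 11.88, 11.75 and 11.83 at the baseline and 12.61, 12.69, 12.95 and 12.61 at the optimum (0.90 ± 0.09, adjusted p = 3.5e-06), the largest change among the 56 genes. LYC, lycopene cyclase of the carotenoid path, fell by 0.55 on the log2 scale.

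Genes encoded in the organelles had medians slightly below 0. Of 69 measured chloroplast genes none rose in limma, none of them with an unadjusted p under 0.05 upward. In this list 2 fell (2.9%, below the 7.76% of all genes), with a median of −0.09. That count of falls was 0 without baseline array 1 or 2 or optimum array 2 or 4, 1 without optimum array 3 and 4 without optimum array 1. Of 16 mitochondrial genes none rose, again with none at an unadjusted p under 0.05 upward, and 1 fell (6.25%), with a median of −0.09. The gene that fell was cox2, a subunit of cytochrome oxidase, which read 6.03, 5.75, 5.97 and 5.74 against 5.44, 5.42, 5.35 and 5.41 (−0.47 ± 0.08, adjusted p = 0.00039). The count of mitochondrial falls was 2 without baseline array 2 or 4.

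Among 62 measured genes of carbohydrate metabolism 9 rose (14.5%, against 6.87% of all genes) and 11 fell (17.7%, against 7.76%). Of 4 measured starch breakdown genes (21 loci listed) 3 rose, with a median of 0.50. AT5G26570, phosphoglucan water dikinase, which opens starch granules to enzymes, read 8.84, 8.80, 8.85 and 8.83 at the baseline and 9.52, 9.50, 9.69 and 9.58 at the optimum (0.74 ± 0.06, adjusted p = 2.7e-07). DPE1, which recycles short glucans, rose by 0.72 ± 0.07. APL4, a large subunit of the enzyme that starts starch synthesis, rose by 0.32 ± 0.08 from a dim 4.55.

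Of 6 measured genes for sucrose, trehalose and raffinose (54 loci listed) 3 fell. They were ATSPS4F, the sucrose-phosphatase AT2G35840 (−0.40 ± 0.08) and F2KP, which sets the level of the regulator fructose 2,6-bisphosphate (−0.36 ± 0.07). The invertase AT1G62660, which splits sucrose, rose by 0.58 ± 0.09. Sugar transporters gave 7 falls (33.3%, against 7.76% of all genes) and 1 rise (4.76%, against 6.87%) among 21 genes (median −0.15). Besides SWEET2, SWEET13 fell by 0.86, SFP1 by 0.67 and SWEET11, which releases sucrose for phloem loading, by 0.48 on the log2 scale. The 1 rise was TMT1, which loads sugars into the vacuole, at 7.26, 7.42, 7.57 and 7.47 against 8.11, 8.41, 8.44 and 8.50 (0.94 ± 0.10, adjusted p = 5.5e-06), with no overlap. The rises among sugar transporters numbered 2 without 20% inhibition array 3.

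**Figure D3:**
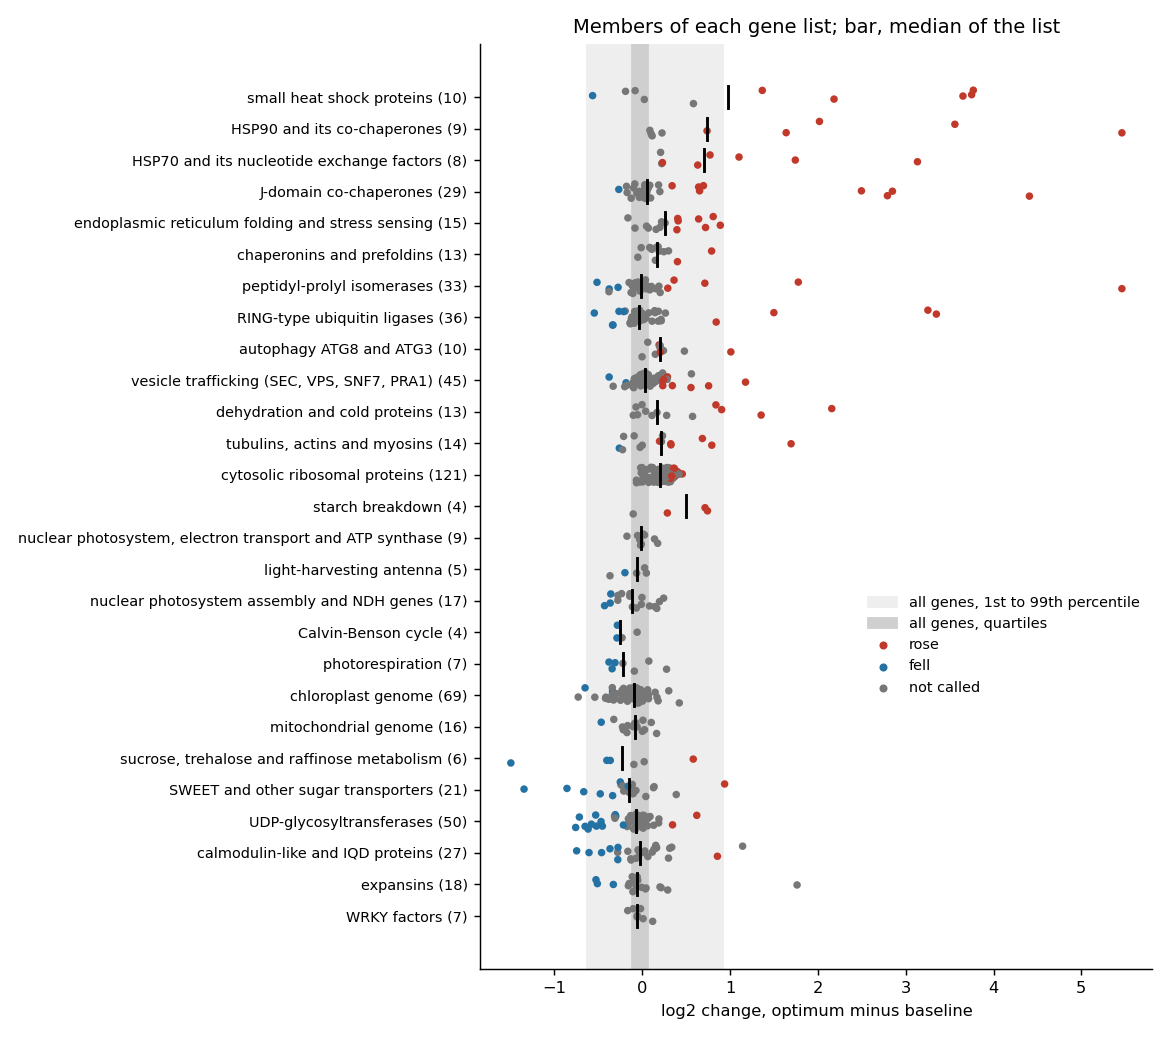
Each point is a measured gene of the list named at the left (number of genes in brackets), placed by its log2 change from baseline to optimum; the black bar is the list's median, and the grey bands span the quartiles and the 1st to 99th percentiles of all 13356 genes. Chaperone lists spread far to the right (up to 5.46), ribosomal proteins form a narrow group around 0.20, and the photosynthesis lists drawn sit around or left of 0. The chlorophyll and carotenoid list, with a median of 0.07 and 10 of 15 genes above 0, is not drawn.

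Of 42 redox genes 5 fell (11.9%, against 7.76% of all genes) and 2 rose (4.76%, against 6.87%). The falls numbered 3 without baseline array 1 or 2 or optimum array 3 or 4, and the rises 1 without baseline array 2 or 3 or optimum array 3 or 4. Both glutathione reductases measured fell: GR1 read 10.35, 10.35, 10.28 and 10.33 at the baseline and 9.96, 9.76, 9.78 and 9.83 at the optimum (−0.50 ± 0.08, adjusted p = 0.00047), and GR, the organellar form, fell by 0.44 on the log2 scale. ATMDAR2, which regenerates ascorbate, rose by 0.68 ± 0.11, and the glutathione transferase GSTU16 fell by 0.48 on the log2 scale. Antioxidant enzymes had 1 rise among 12 genes, and 2 without optimum array 2.

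Of 13 dehydration and cold proteins 4 rose (30.8%, against 6.87% of all genes) and none fell (median 0.17). LTI30 read 6.74, 6.12, 6.68 and 6.31 at the baseline and 8.94, 8.56, 8.12 and 8.86 at the optimum. COR47, another dehydrin, read 9.88, 9.93, 10.09 and 9.88 against 11.55, 11.16, 11.12 and 11.37 (1.35 ± 0.12, adjusted p = 7.8e-07). In neither gene did the groups overlap, and optimum array 1 was the highest here rather than the lowest. COR15B, a cold protein of the chloroplast, rose by 0.90 ± 0.10 and RD2 by 0.84 ± 0.11. COR15A, the close relative of COR15B, changed by 0.28 ± 0.12 (adjusted p = 0.14, with 0.097 to 0.38 over the alternatives). Transcripts of such near copies can bind the same probes, so the contrast within the pair is uncertain.

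Of 32 hormone genes 3 rose (9.38%, against 6.87% of all genes) and 4 fell (12.5%, against 7.76%). GH3.3, which ties auxin to amino acids, read 5.30, 5.55, 5.38 and 6.21 at the baseline and 6.54, 6.77, 6.78 and 7.02 at the optimum (1.17 ± 0.19). IAGLU, which ties auxin to glucose, fell by 0.65 on the log2 scale. GID1A, a gibberellin receptor, rose by 0.48 ± 0.08. Besides RR16, the cytokinin response regulator ARR15 fell by 0.88 on the log2 scale.

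Among 103 transcription and clock genes 7 rose and 7 fell, 6.8% each, which is near the shares of all genes (6.87% and 7.76%). The rises numbered 4 without baseline array 1 or optimum array 1, 3 without baseline array 2 and 11 without 20% inhibition array 3. The clock gene GI read 8.09, 7.78, 7.98 and 7.98 at the baseline and 8.70, 8.55, 8.79 and 8.75 at the optimum (0.74 ± 0.07, adjusted p = 2.5e-06), and AT5G52660, a MYB factor of the REVEILLE family, fell by 0.26 on the log2 scale. AGL16, a MADS-box factor, fell by 0.45. None of 7 WRKY factors, a family known from defence, was called in limma or had an unadjusted p under 0.05.

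Of 88 genes in the signalling lists 10 fell (11.4%, against 7.76% of all genes) and 1 rose (1.14%, against 6.87%). The rises numbered 2 without 20% inhibition array 3, 30% inhibition array 3 or 4 or optimum array 1, and 3 without optimum array 2. Of 27 calmodulin-like and IQD proteins, picked by symbol or locus, 6 fell (22.2%). The median of this list was −0.03, and its highest difference, 1.14, was not called. In limma 8 members were higher and 7 lower at an unadjusted p under 0.05. The share of all genes at that threshold is not given. CaS, a calcium sensor of the thylakoid, read 12.61, 12.65, 12.54 and 12.57 at the baseline and 12.34, 12.16, 12.30 and 12.10 at the optimum (−0.37 ± 0.09, adjusted p = 0.0086). AT1G73630 fell by 0.75 and IQD24 by 0.61 on the log2 scale. The 1 rise in these lists was AT1G18210, an EF-hand protein, at 7.96, 8.0, 8.18 and 7.98 against 9.12, 8.47, 8.70 and 9.25 (0.86 ± 0.14). The count of rises in the calmodulin-like and IQD list was 2 without 20% inhibition array 3, 30% inhibition array 3 or 4 or optimum array 1, and 3 without optimum array 2. Over all the alternatives its rises ran from 1 to 5 and its falls from 4 to 8. Of 34 class I leucine-rich repeat receptor kinases 3 fell (8.82%, near the share of all genes), among them AT5G59670 and AT1G51805 (−0.69). None rose, with none at an unadjusted p under 0.05 upward.

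The cell wall lists held 73 genes, of which 9 fell (12.3%, against 7.76% of all genes) and 2 rose (2.74%, against 6.87%). The highest differences of the expansin (1.76), xyloglucan endotransglucosylase (0.99) and family 9 glucanase (0.95) lists were positive but not called. The falls numbered 5 without baseline array 2 or 4 and 4 without optimum array 4. The rises numbered 1 without baseline array 2, 4 without baseline array 3 and 6 without 20% inhibition array 3. XTH32, which cuts and rejoins xyloglucan, read 10.63, 10.64, 10.58 and 10.52 at the baseline and 9.80, 9.94, 9.90 and 9.80 at the optimum (−0.73 ± 0.09, adjusted p = 2.5e-05). TBL26, of a family that acetylates wall polymers, fell by 0.89 and the glucanase GH9B5 by 0.49 on the log2 scale. EXPA8, an expansin, was called at −0.53 ± 0.15 (adjusted p = 0.019, with 0.0021 to 0.074 over the alternatives), and lost its call without baseline array 1 (0.059) or 2 (0.054) or optimum array 4 (0.074).

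Secondary metabolism gave 18 falls (18.4%, against 7.76% of all genes) and 6 rises (6.12%, against 6.87%) among 98 genes. Of 50 UDP-glycosyltransferases, which attach sugars to small molecules, 12 fell (24.0%) and 2 rose (4.0%). UGT78D2, which glucosylates flavonols and anthocyanidins, read 8.56, 8.64, 8.77 and 8.62 at the baseline and 7.96, 7.96, 7.80 and 7.83 at the optimum (−0.76 ± 0.07, adjusted p = 1.1e-06). UGT76E11 fell by 0.72 and UGT74D1 by 0.53 on the log2 scale, and UGT85A5 rose by 0.62 ± 0.12. The rises in this list numbered 1 without baseline array 2 or 4 or optimum array 1. Among beta-glucosidases BGLU44 rose by 0.82 ± 0.07 and BGLU40 fell by 0.62 on the log2 scale, while the highest difference of that list, 1.8, was not called. Of transporters outside sugar, MTP11, which moves manganese, fell by 0.56 and OCT5, of the organic cation family, by 0.70 on the log2 scale.

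Most genes for cytosolic ribosomal proteins had a small positive difference. Of 121 measured genes 115 were above 0, the median was 0.20 and the range ran from −0.07 to 0.46. Of these 11 rose (9.09%, against 6.87% of all genes) and none fell in limma. At an unadjusted p under 0.05, 54 were higher and none lower. The share of all genes at that unadjusted threshold is not given, so no result is read from this count. AT4G27090, a protein of the large subunit, read 12.15, 12.13, 12.09 and 12.01 at the baseline and 12.25, 12.56, 12.30 and 12.57 at the optimum (0.33 ± 0.08, adjusted p = 0.012). AT3G11250 rose by 0.46 ± 0.11 and AT5G27700 by 0.36 ± 0.08. The number of calls depended on single arrays: it was 4 without baseline array 1, 3 without baseline array 4, 4 without optimum array 2 or 4, 28 without optimum array 3 and 55 without baseline array 3. The median was 0.18 with arrays centred on their medians and 0.19 after a repeated quantile normalisation.

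Tubulins held larger single rises. Of 14 tubulins, actins and myosins 6 rose (42.9%, against 6.87% of all genes) and 1 fell. TUB1 read 5.61, 5.80, 5.75 and 5.39 at the baseline and 7.03, 7.42, 7.19 and 7.69 at the optimum (1.70 ± 0.23, adjusted p = 8.2e-05), with the groups well apart. TUB7 rose by 0.79 ± 0.15, TUB5 by 0.69 ± 0.09, TUB6 by 0.33 ± 0.08 and TUA6 by 0.33 ± 0.06, and TUA1 fell by 0.26 on the log2 scale. TUB9 was called at 0.20 ± 0.06 (adjusted p = 0.021, with 0.013 to 0.07 over the alternatives) and lost its call without baseline array 1 (0.062) or 4 (0.053) or optimum array 4 (0.07). The falls numbered 2 without 20% inhibition array 3. Tubulin genes are near copies of one another in their coding parts, so signal shared between members cannot be told apart.

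In the nucleus, the splicing factor ATU2AF65A rose by 0.42 ± 0.06 (adjusted p = 0.00015). Histone HTB2 was called at 0.63 ± 0.14 although its groups overlapped, and the linker histone AT2G30620 fell by 0.41 on the log2 scale.

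How the change up to the optimum relates to the next step, from the optimum to 20% inhibition, was tested as the difference between the 2 steps. It was called for 5008 of 22746 probe sets (22.0%) and for 2626 of 13356 genes (19.7%), 1259 with the second step more positive (9.43%) and 1367 with it more negative (10.2%). The optimum arrays enter both steps with opposite signs and the comparisons with the baseline share the baseline arrays, so the values below are given side by side only. Of the 109 genes that rose at least 2-fold, 80 had a second step in the same direction and 29 went back. Their median against the baseline was 1.37 at the optimum, 2.24 at 20% and 2.25 at 30% inhibition. These genes were chosen for a large first step, so no test between their steps is read here. Of the 23 genes that fell at least 2-fold, 21 went further down and 2 went back, with medians of −1.15, −1.74 and −1.89.

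**Figure D4:**
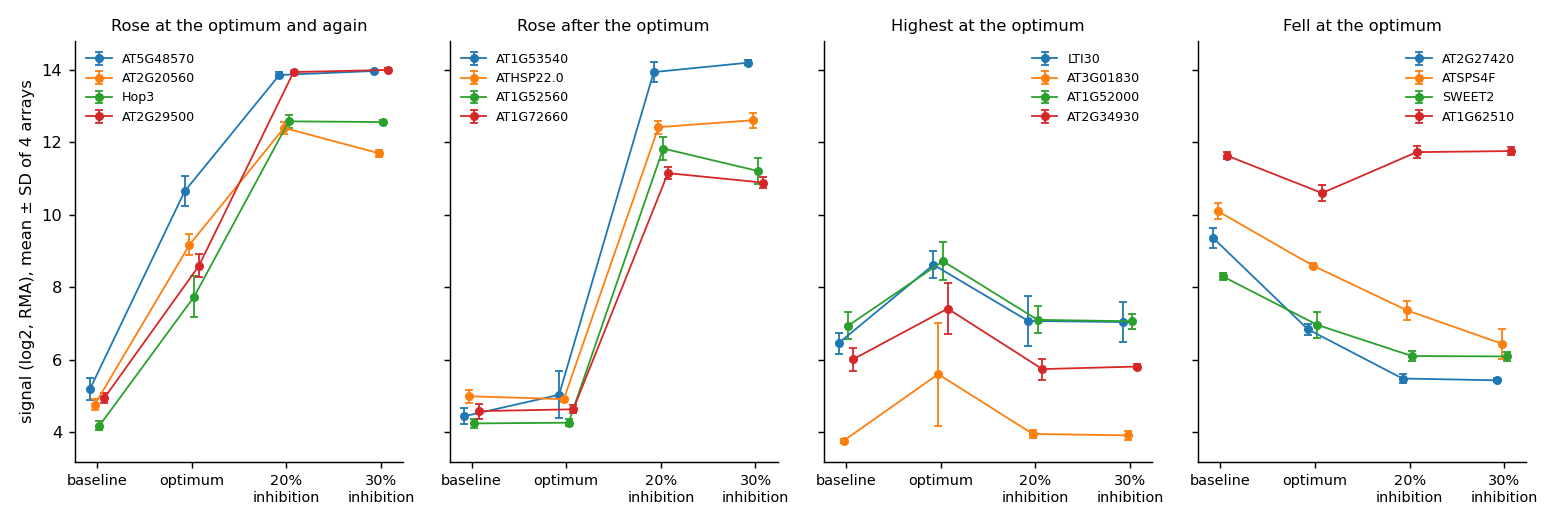
Mean log2 signal (points) with the SD of 4 arrays (bars) in the 4 states for 16 genes in 4 panels. AT5G48570 and AT2G20560 rose at the optimum and again after it, AT1G53540 and ATHSP22.0 stayed near their baseline level until after it, LTI30 and AT1G52000 peaked at the optimum, and AT1G62510 returned to its baseline level.

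Chaperones included early and late members. AT5G48570 had risen by 5.46 at the optimum and stood 8.68 above the baseline at 20% inhibition, where its mean was 13.86 and the brightest values of those arrays lay at 14.56 to 14.65. AT1G53540 went from 0.58 at the optimum to 9.50 at 20% inhibition, a difference between steps of 8.33 ± 0.40 (adjusted p = 3.3e-10). ATHSP22.0 (7.59 ± 0.19), AT1G52560 (7.55 ± 0.27), the GTP-binding protein AT1G72660 (6.47 ± 0.19) and AT5G37670 (5.21 ± 0.22) followed. HSA32 stood at 0.33 and 4.72 above the baseline in the 2 states (4.06 ± 0.17). Of the 10 small heat shock proteins, 6 had a second step called more positive and 1 more negative, against 9.43% and 10.2% of all genes.

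Mitochondrial transcripts showed the late pattern as a group. Against the baseline their median was −0.09 at the optimum and 1.95 at 20% inhibition. A more positive second step was called for 13 of 16, against 9.43% of all genes. For cox2 the values were −0.47 and 2.11, and for nad6, a subunit of complex I, −0.23 (not called, adjusted p = 0.14, with 0.037 to 0.32 over the alternatives) and 3.81. Among the other 10 largest positive differences were AT2G07722 (4.86), AT4G23493 (4.77), AT1G44414 (4.58) and AT4G19430 (4.51), none of them called at the optimum. AT4G23493 was called there without baseline array 1 (0.029) or optimum array 1 (0.022), within 0.022 to 0.21 over the alternatives, and AT1G44414 when only the 8 arrays compared were fitted (0.038, within 0.038 to 0.42).

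Other genes were high at the optimum and not later. LTI30 stood 2.16 above the baseline at the optimum and 0.61 above it at 20% inhibition, the most negative difference between the steps (−3.71 ± 0.53, adjusted p = 0.00012). AT1G52000, a jacalin-type lectin, read 7.47, 6.75, 6.94 and 6.61 at the baseline and 8.17, 9.33, 8.41 and 8.97 at the optimum, then 0.16 above the baseline at 20% inhibition (difference −3.39 ± 0.42). AT3G01830, a calmodulin-like gene without a symbol in the annotation and outside the list given above, read 3.78, 3.69, 3.8 and 3.77 against 6.79, 4.03, 4.78 and 6.81 (1.84 ± 0.44, adjusted p = 0.0075), then 0.19 above the baseline. Its optimum arrays were spread widely (SD 1.42), with arrays 1 and 4 high and array 2 close to the baseline level.

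AT2G34930, a leucine-rich repeat protein, and AT2G24600, an ankyrin protein, had the same course, 1.41 and −0.27 for the first and 1.33 and −0.35 for the second at the optimum and 20% inhibition. AT4G12490, of the lipid transfer type, was not called at the optimum (1.76 ± 0.59, adjusted p = 0.053), where its arrays read 5.66, 5.26, 9.11 and 8.36. It was called there without optimum array 1 (0.015) or 2 (0.0055) or 20% inhibition array 3 (0.05), within 0.0055 to 0.18 over the alternatives. Its difference between steps was −3.28 (adjusted p = 0.031) and ended as a call without optimum array 3 or 4 (adjusted p = 0.13 each), with the 25S control as a covariate (0.061), with only the arrays of the states compared (0.061) and with a robust prior (0.051). AT1G35710, a receptor kinase (−3.62), AT5G55450, a lipid transfer protein (−3.28), AT1G55450, a methyltransferase (−3.09), and AT3G04210, a TIR-type resistance protein (−2.95), were not called at the optimum and lay below the baseline at 20% inhibition. Without 20% inhibition array 3, AT1G35710 (0.029) and AT1G55450 (0.019) were called higher at the optimum.

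Many genes of the ribosomal and tubulin lists had a second step more negative than the first. Of the 121 ribosomal genes, 62 had a more negative second step and none a more positive one, against 10.2% and 9.43% of all genes. Their median against the baseline was 0.20 at the optimum and −0.11 at 20% inhibition. How far the 62 depend on single arrays is not given here, while the first-step rises of this list ran from 3 to 55. Of the 14 tubulins, actins and myosins 8 had a more negative second step. TUB7 went from 0.79 to 0.01 and TUB5 from 0.69 to 0.18, whereas TUB1 stood at 1.70 and 1.73. TMT1 went from 0.94 to 0.11, BGLU44 from 0.82 to 0.16 and AT1G18210 from 0.86 to −0.26. Histones had 8 of 18 members with a more negative second step, HTB2 going from 0.63 to −0.67.

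**Figure D5:**
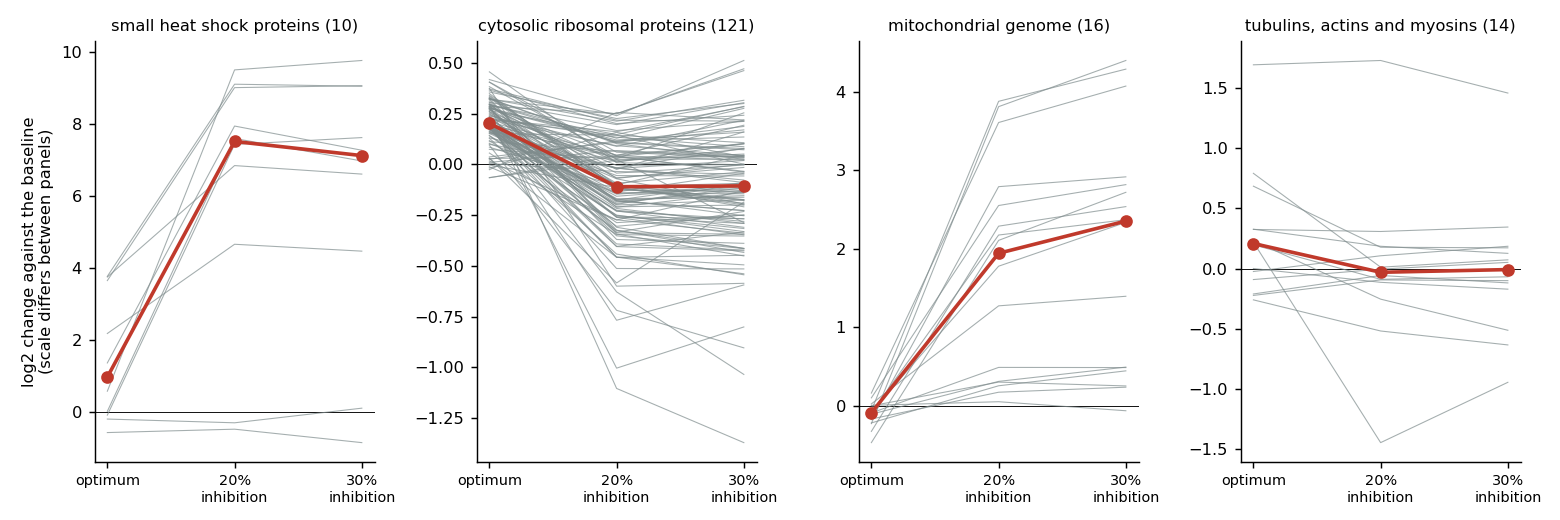
Log2 change against the baseline at the optimum, 20% and 30% inhibition for each member (grey lines) of 4 lists, with the list's median in red; the y scale differs between panels and the 3 differences share the baseline arrays. The mitochondrial median goes from −0.09 to 1.95 after the optimum, and the ribosomal median from 0.20 to −0.11.

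By contrast many falls were part of a longer decline. ATSPS4F stood 1.5 below the baseline at the optimum, 2.74 below it at 20% and 3.66 below it at 30% inhibition, with no call for a difference between the steps (0.25 ± 0.29, adjusted p = 0.56). AT5G59670 fell by a further and larger amount, to 3.59 below the baseline at 20% inhibition (difference −1.5 ± 0.26, adjusted p = 0.00065). AT2G27420, 2.52 below the baseline at the optimum, was 3.88 below it, with a smaller second step (limma difference 1.17, adjusted p = 0.00046). AT3G24460 stood at −1.42, −1.36 and −1.46 against the baseline in the 3 later states (limma difference 1.49, adjusted p = 2.1e-05). Of the 23 genes, 1 had a larger second step called, 13 a smaller or opposite one and 9 no call. They were chosen for a large first step, so no result is read from these counts. Among the named falls AT1G62510, which fell by 1.03 on the log2 scale at the optimum, stood 0.10 above the baseline at 20% inhibition, and cox2, given above, stood 2.11 above it.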

How the data were processed

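Per the labels' protocols, 6 µg of total RNA from 100 mg of leaf was turned into biotin-labelled cRNA for Affymetrix arrays. The values deposited by the authors are log2 signals per probe set; RMA and limma are the tools in the submitters' processing notes; no version of either is stated there. Array medians ran from 6.13 to 6.19 in the 8 arrays compared, and no further scaling or filter was applied. The number of arrays limits the precision.

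One limma 3.58.1 model (R 4.3.3; lmFit, then eBayes; residual degrees of freedom 12, prior 4.21) took 22746 probe sets on all 16 arrays, with a mean for each of the 4 states; 64 controls were left out. Tests were 2-sided with Benjamini-Hochberg adjustment over all probe sets; a probe set was called when its adjusted p was under 0.05, and only called values are said to have risen or fallen. Errors of changes are limma's SE. The fit was tested on simulated data.

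Genes came from the platform annotation of the array, updated by RefSeq (TAIR10.1): 13513 probe sets had 1 gene, 503 several and 8730 none. The brightest probe set stood for a gene; DER1 has a dimmer one at −0.05, not called. The 70 gene lists and all members were chosen with earlier results of these data known, and lists were completed by locus once the annotation had been seen. Named were the 25 largest rises and falls, up to 4 called members of each list per direction, some members not called, and the 10 largest differences between steps in each direction. The numbers of the arrays do not pair them: same-numbered optimum and baseline arrays correlated at −0.3592 to 0.1467 in their deviations from the group means. Promoter motifs were not analysed here. The alternatives stand in the closing section.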

Additional observations from a re-analysis of the deposited data

Results flagged for a closer look

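Of 354 groups of 4 arrays examined for the named genes, 9 had 1 array far from the other 3, where chance alone gives about 1 in 20 groups. At the baseline, AT2G33850 had array 3 at 7.66 with the others at 4.08 to 4.67, AT5G10695 had array 2 at 5.51 with the others at 6.17 to 6.23, and AT5G42760 had array 3 at 6.38 with the others at 6.94 to 7.01. WSD1 had array 2 at 8.17 with the others at 8.0 to 8.02, AT3G16670 had array 1 at 10.2 with the others at 10.57 to 10.63, and GH9B5 had array 4 at 5.46 with the others at 5.20 to 5.22. At the optimum, SWEET2 had array 4 at 6.41 with the others at 7.08 to 7.18, RD2 had array 4 at 10.39 with the others at 9.87 to 9.95, and AT3G10020 had array 1 at 9.78 with the others at 9.89 to 9.91. In 5 of the 9 the range of the group was over 0.5.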

How the results depend on the processing

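With 1 probe set per gene the calls numbered 1919, 904 higher and 1015 lower, 108 at least 2-fold higher and 23 at least 2-fold lower, with 2542 differences between steps; this setting tests fewer features. At an adjusted p under 0.01 they numbered 2061, 1018 and 1043, with 2640 differences between steps. Leaving out single arrays gave 2710 to 4479 calls, 1358 to 2211 higher and 1352 to 2268 lower, 202 to 273 at least 2-fold higher, 40 to 56 at least 2-fold lower and 3678 to 5734 differences between steps. Other settings went beyond these ranges. Array weights gave 5214 calls (2540 higher, 2674 lower) and 5813 differences between steps, and arrays centred on their medians gave 6212 such differences. With the replicate block there were 3568 calls (1764 higher, 1804 lower) and 4695 differences between steps, although the numbers do not pair the arrays. The higher share of calls was 49.1%, 42.3% with arrays centred and 44.5% after a repeated quantile normalisation. Of the 156 called genes named in the text, 147 kept the call under every setting at 0.05, and 140 had an adjusted p under 0.01 in the reported fit. Values near 0 without a call changed sign for AT1G52560 (−0.002 with array weights, −0.021 to 0.071 without single arrays), AT1G72660 (−0.023 to 0.148 without single arrays) and AT3G04210 (−0.015 with array weights, −0.001 after repeated quantile normalisation, −0.055 to 0.089 without single arrays); the cause was not tested. The motif search fixed in the plan was not run. Dim probe sets limit what can be seen: the lowest signals lie at about 3.3, and changes of genes close to it may be understated.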
